A study of Rattus norvegicus with 2 samples.

Results

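Resting Rag1-positive thymocyte-like cells were 682 of the 29688 rat heart leukocytes that passed the filters, and all 682 came from 1 of the 2 deposited libraries. They were chosen from the measured counts. A cell had to hold at least 1 unique molecular identifier (UMI, 1 counted transcript end) of Rag1 and at least 1 of Dntt, Ptcra or Ccr9 in sum. It could hold at most 2 UMIs of Mki67, Top2a, Birc5, Cdk1, Ccna2 and Ube2c, which mark division. It had to be free of the B cell gene Cd79b, have at most 2 UMIs of the macrophage genes C1qa, C1qb and C1qc, and have under 2% of its UMIs from the neutrophil genes S100a8 and S100a9. The study asked how a polyurethane scaffold seeded with human amniotic epithelial stem cells acts on leukocytes of the infarcted heart. It profiled sorted CD45+ cells by droplet single-cell RNA sequencing at day 7 after the operation. The labels give 1 sample of the MI+PUR-hAESC group, rats with a myocardial infarction and the patch, and 1 sample of the MI group, with the infarct alone; both have the genotype wt, the tissue is heart, and the left ventricle was taken with infarct and surrounding zone. The labels give neither strain nor age nor the number of rats in a sample. The deposited matrix pools both samples under the barcode suffixes 1 and 2, and nothing in the sources says which suffix belongs to which group, so no effect of the patch is given for these cells.

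Thymocytes are T cell precursors that normally mature in the thymus. In the double-positive stage, named for its coreceptors CD4 and CD8, dividing cells give way to small resting cells in which the RAG1 and RAG2 recombinase cuts the T cell receptor alpha locus. The ends are joined by Artemis (Dclre1c), DNA ligase 4 (Lig4) and Xrcc4, and terminal transferase (Dntt) adds bases at the joints. Signals through the new receptor then decide on survival, and selected cells gain the receptors used to leave the thymus.

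Promoters of genes of this programme that are in RefSeq (build GRCr8, 250 bases before to 50 after the start of the gene) were read for the motif CAGCTG, a form of the E-box that E proteins such as Tcf12 recognise and that reads the same on both strands. Of the 8 genes looked up with an entry, 4 held it, against 15.1% of all 33469 promoters in the table. These 4 are shown because they hold the motif, which capitals mark. The Rag1 promoter lies at chr3:108383135-108383434 on the minus strand and has 1 match, Ptcra at chr9:21716272-21716571 on the plus strand has 3, Lig4 at chr16:86220192-86220491 on the plus strand has 1, and Dclre1c at chr17:79718253-79718552 on the minus strand has 1.
Rag1: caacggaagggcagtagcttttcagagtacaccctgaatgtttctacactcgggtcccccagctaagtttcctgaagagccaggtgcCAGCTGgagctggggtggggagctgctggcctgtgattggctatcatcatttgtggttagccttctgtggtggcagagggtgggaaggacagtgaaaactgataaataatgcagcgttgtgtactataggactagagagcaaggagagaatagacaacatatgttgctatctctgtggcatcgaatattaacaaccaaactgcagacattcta
Ptcra: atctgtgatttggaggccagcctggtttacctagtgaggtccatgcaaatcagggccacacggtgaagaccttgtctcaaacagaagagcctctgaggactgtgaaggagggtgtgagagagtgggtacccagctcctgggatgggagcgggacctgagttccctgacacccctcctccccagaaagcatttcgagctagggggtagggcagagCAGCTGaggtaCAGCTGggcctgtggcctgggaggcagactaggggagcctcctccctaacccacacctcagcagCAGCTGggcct
Lig4: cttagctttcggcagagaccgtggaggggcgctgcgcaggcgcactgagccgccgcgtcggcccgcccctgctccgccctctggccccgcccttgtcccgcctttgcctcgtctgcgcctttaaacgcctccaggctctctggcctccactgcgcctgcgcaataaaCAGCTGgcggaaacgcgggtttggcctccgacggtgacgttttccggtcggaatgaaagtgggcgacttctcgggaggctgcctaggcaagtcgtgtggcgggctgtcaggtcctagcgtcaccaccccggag
Dclre1c: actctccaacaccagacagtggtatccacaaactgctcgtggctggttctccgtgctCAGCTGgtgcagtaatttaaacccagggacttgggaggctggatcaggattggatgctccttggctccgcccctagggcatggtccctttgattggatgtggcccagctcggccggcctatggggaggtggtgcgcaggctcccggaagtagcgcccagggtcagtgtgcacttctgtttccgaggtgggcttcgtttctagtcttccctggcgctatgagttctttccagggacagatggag
In the same window of Rag2, Dntt, Cd8a and Satb1 these letters did not occur. A match describes the sequence and shows no binding.

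Library 2 held every Rag1 transcript of the series. It had 3436 of 82802439 UMIs there, and 0 of 72506643 in library 1. Rag2 had 156 UMIs in library 2 and 0 in library 1. The 682 resting thymocyte-like cells made up 4.39% of the 15551 cells of library 2 that passed (exact 95% binomial interval, Clopper-Pearson, 4.07 to 4.72). In library 1, 0 of 14137 cells met the rule, which allows a share of up to 0.0212% at 3 cells of the total, with an exact binomial upper limit of 0.0261%. All intervals cover counting error only. Each library is 1 sample, so there is no replicate check on this difference and no test. Dntt and Ptcra alone did not separate the libraries in this way. Dntt had 2863 UMIs in library 2 and 193 in library 1. Of the 34 cells of library 1 with a Ptcra UMI, 25 also held Siglech, a marker of plasmacytoid dendritic cells. The libraries shared 71 barcode sequences, and 2 of the 682 cells carried a sequence that also occurs in library 1.

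The rule fixed the levels of its own genes, which are given here as a description. Rag1 had a median of 3 UMIs per cell and at most 15. It stood at 1 UMI in 138 cells, at 2 in 129 and at 3 or more in 415. Dntt was seen in 531 cells (77.9%), Ptcra, the surrogate alpha chain of the pre-T cell receptor, in 287 (42.1%) and Ccr9, a receptor for the thymic chemokine Ccl25, in 567 (83.1%). No UMI of the division genes was found in 641 cells. Just inside the limit, the 138 cells with 1 Rag1 UMI had 1046 CPM (UMIs scaled to the same total in each population) of Cd8b, 1058 CPM of Satb1 and 618 CPM of Thy1. Just outside it, 525 cells without Rag1 met all other limits and had 214 CPM of Cd8b, 331 CPM of Satb1 and 97.1 CPM of Thy1. Among these 525, the 112 with 2 or more UMIs of Dntt and Ptcra lay between, with 403 CPM of Cd8b, 467 CPM of Satb1 and 287 CPM of Thy1. At the division limit, 6 cells had 2 UMIs of those genes and 6 further cells had 3 or 4. Of 764 cells that met the thymocyte and division limits, 52 were left out for Cd79b, 20 for C1q and 17 for S100a8 and S100a9, with overlaps.

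The cells held few UMIs, apart from a tail of deep ones. Their median was 1641 UMIs (quartiles 1393 and 2013, range 541 to 26155) and 946 genes per cell. The 94 dividing thymocyte-like cells of library 2, which met the same rule with 3 or more division UMIs, had a median of 7612 UMIs. The 3206 mature T cells of library 2 had a median of 4793 UMIs. Mature T cells are here cells with at least 2 UMIs of Cd3d, Cd3e and Cd3g, without Rag1, Dntt, Ptcra or the natural killer gene Ncr1, and within the same division, B cell, macrophage and neutrophil limits.

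**Figure D1:**
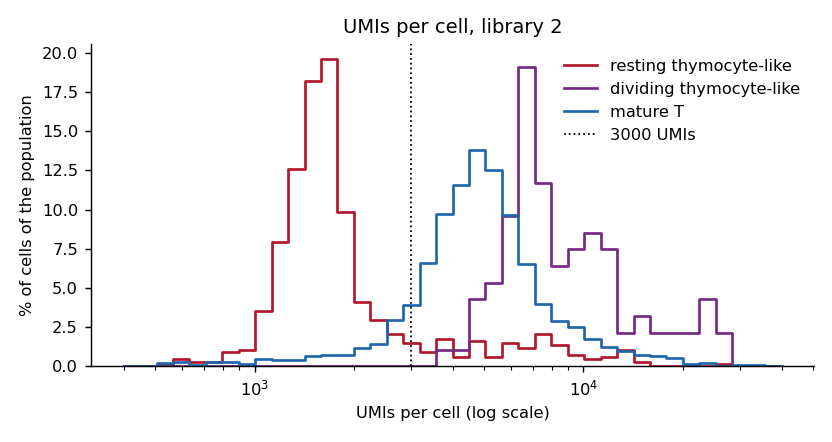
Distribution of UMIs per cell (horizontal axis, log scale) as a percent of the cells of each population of library 2 (vertical axis), for 682 resting thymocyte-like cells, 94 dividing thymocyte-like cells and 3206 mature T cells. The resting cells form a narrow peak near their median of 1641 UMIs, with 106 cells to the right of the dotted line at 3000 UMIs.

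The tail of deep cells carried transcripts of other cell types. It held 106 cells over 3000 UMIs, which were 15.5% of the cells and 44.9% of their UMIs, and a doublet caller marked 52 of them, against 3 of the 576 cells at 3000 UMIs or fewer. Rag1 averaged 3.9 UMIs per cell in the deep cells and 3.68 in the others. A list of 24 measured effector and cytotoxic T cell genes summed to 9539.9 CPM in the deep cells and 624 CPM in the others, against 18343 CPM in mature T cells. The 13 macrophage genes, Apoe and Lyz2 among them, summed to 5604 CPM in the deep cells and 936 CPM in the others, and the 11 class II genes to 4779 and 417 CPM. Many values are therefore given for all 682 cells and again for the 576 cells at 3000 UMIs or fewer, a limit chosen after seeing the data. Where the 576 cells are not named, a value is for all 682. Less RNA per cell and poorer capture of it cannot be told apart here.

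Genes were compared with mature T cells and with dividing thymocyte-like cells of the same library on UMIs summed over cells, as CPM, and a gene was called at a ratio of 2-fold or more in CPM plus 10, with at least 20 CPM in the higher population. These are descriptions with no test, since cells are not replicates and the cells were picked from the same counts. Against mature T cells, 586 of 6078 genes were 2-fold or more higher, 9.64% of those tested, and 240 were 2-fold or more lower, 3.95%. For the 576 cells, 1015 of 6254 genes were higher (16.2%) and 667 lower (10.7%). Scaling by TMM moved the median log2 ratio of all tested genes to -0.10, against 0.22 unscaled. It gave 359 genes higher and 496 lower of 6019 tested. Under that scaling the lower genes numbered 6 of 20 tested for receptor signalling, 7 of 16 for positive selection and 8 of 13 for homing. They numbered 5 of 12 for survival and 10 of 15 for class I. These stand in place of the 2, 4, 5, 3 and 7 given below. Their background is the 496 of 6019 and not the 3.95%.

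Genes that cut and join the receptor loci were high in the resting cells. Of 16 recombination and end-joining genes, 11 could be tested against mature T cells, and 7 were 2-fold or more higher and 0 lower, with a median log2 ratio of 1.18 against 0.22 over all genes. The rule used Rag1 and Dntt, so the 9.64% background is given beside this count and nothing is read from it. Lig4, which seals the broken ends, had 344 CPM (exact 95% Poisson interval 317 to 374) in the resting thymocyte-like cells, 66.3 CPM (50.8 to 85.0) in the dividing ones and 22.6 CPM (20.4 to 25) in mature T cells. Its log2 ratios were 3.44 to mature T cells and 2.22 to dividing cells. Dclre1c, the nuclease that opens the hairpin ends, had 187 CPM in the resting cells, 68.4 CPM in the dividing ones and 13.3 CPM in mature T cells. Of 12 genes of the list tested against dividing cells, 3 were 2-fold or more higher: Lig4, Dclre1c and Rag1, which the rule used. Hmgb1 and Hmgb2 were the 2 lower ones, and the backgrounds were 5.98% higher and 8.08% lower. The list summed to 3874 CPM in the resting cells and 7108 CPM in the dividing ones.

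Rag2, which the rule did not use, had 42.1 CPM (32.8 to 53.2) in the resting cells, 43.8 CPM in the dividing cells and 0.173 CPM in mature T cells. Resting and dividing cells differed by less than the counting error, with a log2 ratio of -0.05 and overlapping intervals (dividing, 31.4 to 59.5). Rag1 had 1523 CPM in the resting cells, 424 CPM in the dividing ones and 0 in mature T cells. At least 1 UMI of it was required of every resting and dividing cell, whose depths differ, so nothing is read from that contrast. Xrcc4, the partner of Lig4, had 27.1 CPM in the resting cells, 11.8 CPM in the dividing ones and 7.78 CPM in mature T cells. Hmgb1, a DNA-bending cofactor of the recombinase, had 43.3 CPM in the resting cells and 13.5 CPM in mature T cells, but 112 CPM in dividing cells. The 2-fold call against mature T cells was lost under TMM scaling for Xrcc4 and Hmgb1, with log2 ratios of 0.85 and 0.93. Genes of end joining that all cells use were closer to mature T cells, with Prkdc, the DNA-dependent kinase, at a log2 ratio of 0.57 and Xrcc5, a Ku subunit, at -0.25.

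**Figure D2:**
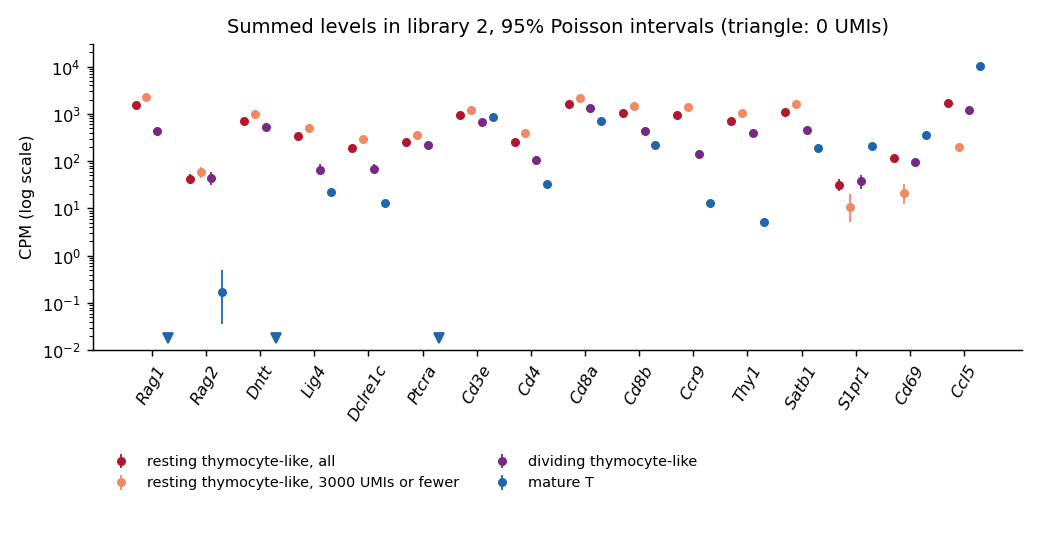
Summed level in CPM (vertical axis, log scale) of 16 genes in all 682 resting thymocyte-like cells, the 576 of them at 3000 UMIs or fewer, 94 dividing thymocyte-like cells and 3206 mature T cells; bars are exact 95% Poisson intervals and triangles mark 0 UMIs. Lig4, Cd4, Cd8b, Thy1 and Satb1 are highest in the resting cells, S1pr1, Cd69 and Ccl5 in mature T cells; Rag1, Dntt, Ptcra and Ccr9 were used to choose the cells.

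The coreceptors were present together, although the rule used neither. Cd4, the coreceptor for class II, had 258 CPM (234 to 284) in the resting thymocyte-like cells, 106 CPM (86.0 to 129) in the dividing ones and 33.4 CPM (30.7 to 36.2) in mature T cells. Cd8a and Cd8b, the chains of the class I coreceptor, had 1584 and 1036 CPM in the resting cells, 1355 and 432 CPM in the dividing ones, and 689 and 222 CPM in mature T cells. All 3 genes were 2-fold or more higher than in mature T cells, against a background of 9.64%. Their median log2 ratio was 2.17, and under TMM scaling Cd8a was at 0.84. Over dividing cells, Cd4 and Cd8b were 2-fold or more higher (log2 ratios of 1.21 and 1.24) and Cd8a was not (0.22).

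Because detection in single cells rises with depth, UMIs were drawn at random down to 1000 in every cell, and the shallower cells were set aside (20 resting cells, 0 dividing cells and 40 mature T cells). UMIs of both Cd4 and Cd8a or Cd8b were then found in 192 of 662 resting cells, or 29.0% (25.6 to 32.6), in 9.57% (4.47 to 17.4) of the dividing cells and in 0.411% (0.219 to 0.701) of mature T cells. Cells that should lack one of the coreceptors gave 0.115% in B cells, 0.214% in neutrophils and 0.842% in macrophages, with median depths of 2939, 2811 and 6780 UMIs before thinning. A further 63.1% of the resting cells had Cd8a or Cd8b without Cd4, 1.21% had Cd4 alone and 6.65% had neither. In mature T cells the same states held 44.8%, 2.78% and 52.0%. Of 556 resting cells with 3000 UMIs or fewer before thinning, 31.7% (27.8 to 35.7) had both. Without thinning the share with both was 45.3% in resting cells, 52.1% in dividing cells and 3.68% in mature T cells; the dividing cells had the higher unthinned share at several times the depth and the lower Cd4 level in CPM.

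**Figure D3:**
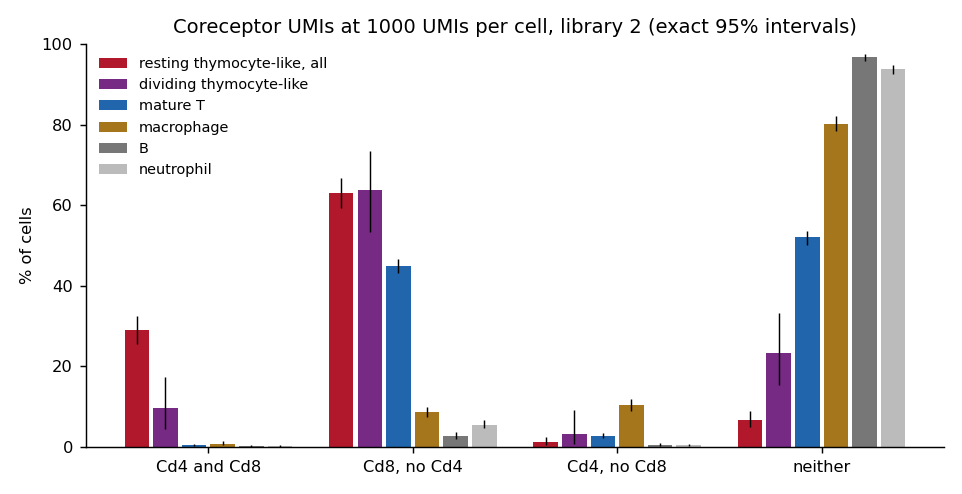
Percent of cells (vertical axis) with UMIs of both Cd4 and Cd8a or Cd8b, of Cd8a or Cd8b alone, of Cd4 alone, or of neither, at 1000 UMIs per cell, in resting thymocyte-like cells, dividing thymocyte-like cells, mature T cells, macrophages, B cells and neutrophils of library 2; bars are exact 95% binomial intervals. The share with both is 29.0% in the resting cells and at most 0.842% in mature T cells, macrophages, B cells and neutrophils.

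Without TMM scaling, the measured genes of the receptor complex were at or above their level in mature T cells. Of the 11 genes on the list, 5 were measured, and the constant chains of the receptor were not among them. Cd3d and Cd3e had log2 ratios of 0.60 and 0.19, against a median of 0.22 over all genes. UMIs of Cd3d, Cd3e and Cd3g were used to choose the mature T cells. Cd3g had 2116 CPM in the resting cells, 1725 CPM in the dividing ones and 1208 CPM in mature T cells, and Cd247, the zeta chain, had 571, 382 and 296 CPM in the same order. Neither reached 2-fold over mature T cells in all 682 cells (log2 ratios of 0.80 and 0.93), and both did in the 576 cells at 3000 UMIs or fewer (1.20 and 1.30). Ptcra had 253 CPM in the resting cells, 222 CPM in the dividing ones and 0 in mature T cells, as the rule and the definition of mature T cells set.

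Of 20 tested genes of receptor signalling, 2 were 2-fold or more higher than in mature T cells and 2 lower, against backgrounds of 9.64% and 3.95%. In the 576 cells 6 were higher and 5 lower, against 16.2% and 10.7%. Themis, a thymocyte protein needed for positive selection, had 342 CPM in the resting cells, 127 CPM in the dividing ones and 79.8 CPM in mature T cells. Lat, the adaptor below the receptor, had 1140.3 CPM in the resting cells and 453 CPM in mature T cells, with a log2 ratio of 1.31, or 0.96 under TMM scaling. Cd2, an adhesion receptor, had 244 CPM in the resting cells and 933 CPM in mature T cells, and Ptpn22, a phosphatase that dampens the signal, had 119.7 and 319.6 CPM. In the 576 cells Lck, the kinase bound to the coreceptors, was also 2-fold or more higher, with a log2 ratio of 1.24.

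Several transcription factors of immature T cells were 2-fold or more higher, and 3 factors of circulating or effector T cells lower. Of 27 tested factors, 10 were 2-fold or more higher than in mature T cells and 3 lower, against backgrounds of 9.64% and 3.95%, and the median log2 ratio was 0.79 against 0.22. Satb1, a chromatin organiser active in thymocytes, had 1111 CPM (1061 to 1163) in the resting cells, 459 CPM (416 to 504) in the dividing ones and 188 CPM (182 to 195) in mature T cells. Thinned to 1000 UMIs, Satb1 was seen in 71.0% of resting cells (67.4 to 74.4), 35.1% of dividing cells, 15.7% of mature T cells and 13.1% of B cells. Tcf12, the E protein HEB, had 444 CPM in the resting cells, 209 CPM in the dividing ones and 71.0 CPM in mature T cells. Over the dividing cells the log2 ratios were 1.26 for Satb1 and 1.05 for Tcf12, and under TMM scaling Tcf12 was no longer called there.

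Tcf7, the factor TCF-1, and Myb, needed for survival of double-positive cells, did not separate resting from dividing cells at that threshold. Tcf7 had 519.9 CPM in the resting cells, 513 CPM in the dividing ones and 104 CPM in mature T cells. Myb had 557 CPM in the resting cells, 419 CPM in the dividing ones and 21.4 CPM in mature T cells. Ikzf3, the factor Aiolos, had 244 CPM in the resting cells, 90.9 CPM in the dividing ones and 102 CPM in mature T cells, and its log2 ratio of 1.19 to mature T cells was 0.85 under TMM scaling. Hes1, a Notch target, went the other way between the immature populations, with 27.7 CPM in the resting cells and 138 CPM in the dividing ones. Lower in the resting cells were Id2, an inhibitor of E proteins, with 53.6 CPM against 132 CPM in mature T cells, Foxo1 with 30.7 against 97.6 CPM, and Klf2, which drives the egress receptors, with 9.03 against 31.0 CPM.

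Surface genes and genes of the double-positive stage were mixed. Of 17 tested, 7 were 2-fold or more higher than in mature T cells and 2 lower, against backgrounds of 9.64% and 3.95%, with a median log2 ratio of 0.43. In the 576 cells 7 of 16 were higher and 4 lower, against 16.2% and 10.7%. Thy1, which rat T cells lose as they mature after leaving the thymus, had 691 CPM (651 to 732) in the resting cells, 402 CPM (362 to 445) in the dividing ones and 5.07 CPM (4.07 to 6.25) in mature T cells. At 1000 UMIs per cell it was seen in 58.0% of resting cells (54.1 to 61.8), 38.3% of dividing cells, 1.04% of mature T cells and 1.90% of B cells. Arpp21, an RNA-binding phosphoprotein, had 784 CPM in the resting cells, 384 CPM in the dividing ones and 92.2 CPM in mature T cells. Cd24, a glycoprotein of mouse thymocytes, had 21.1 CPM in the resting cells and 4.37 CPM in the 576 at 3000 UMIs or fewer, against 13 CPM in mature T cells and 220.5 CPM in B cells. Endou and Aqp11 had 0 UMIs in the resting cells.

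Genes that follow a positive selection signal were not raised. Of 15 tested, 0 were 2-fold or more higher than in mature T cells and 4 were lower, against backgrounds of 9.64% and 3.95%, at a median log2 ratio of -0.59. In the 576 cells 6 were lower, against 10.7%. Cd69, which rises on receptor signalling and holds back the egress receptor, had 114 CPM in all resting cells and 20.7 CPM in the 576, against 97.3 CPM in dividing cells and 355 CPM in mature T cells. Itm2a, a membrane protein induced by selection in the mouse, had 42.1 CPM in all resting cells, 8.73 CPM in the 576 and 107 CPM in mature T cells. Ccr7, which draws selected cells to the medulla, had 3.61 CPM in all resting cells and 0 UMIs in the 576, against 18.4 CPM in mature T cells. Thinned, 4.23% of resting cells (2.83 to 6.06) had a Cd69 UMI, against 6.38% of dividing cells and 21.7% of mature T cells. Set against naive-like T cells, Cd69 and Itm2a were not called in all 682 cells, with log2 ratios of -0.51 and -0.57. In the 576 cells both were among 7 of 16 tested genes lower than in naive-like cells, against a background of 8.5%.

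Homing and egress genes divided by direction. Of 12 tested, 3 were 2-fold or more higher than in mature T cells and 5 lower, against backgrounds of 9.64% and 3.95%, and in the 576 cells 3 were higher and 9 lower, against 16.2% and 10.7%. Beside Ccr9, which the rule used (941 CPM in the resting cells, 144 CPM in the dividing ones and 13.2 CPM in mature T cells), the higher genes were Itga6, the laminin receptor chain, with 129 CPM in the resting cells and 34.0 CPM in mature T cells, and Plxnd1, a guidance receptor of thymocytes, with 66.8 and 9.63 CPM. S1pr1, the receptor by which T cells leave the thymus, had 31.3 CPM (23.4 to 41) in all resting cells, 10.9 CPM in the 576, 37.4 CPM in dividing cells and 207 CPM (200.2 to 214) in mature T cells. It sat lower in the 576 cells than in all 682, and the deep cells supplied most of its counts.

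Genes of survival and death split as well. Of 12 tested, 4 were 2-fold or more higher than in mature T cells and 3 lower, against backgrounds of 9.64% and 3.95%. In the 576 cells 4 were higher and 5 lower, against 16.2% and 10.7%. Bcl2l1, which encodes the survival protein of double-positive cells, had 96.3 CPM in the resting cells and 26.3 CPM in mature T cells. Bcl2, the survival factor of mature T cells, had 28.3 CPM in the resting cells and 73.2 CPM in mature T cells. The death-promoting genes Bcl2l11, with 455 against 116 CPM in mature T cells, and Fas, with 209 against 20.2 CPM, were also higher in the resting cells. None of the 12 passed 2-fold against dividing cells when all 682 were used, where the backgrounds were 5.98% higher and 8.08% lower.

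**Figure D4:**
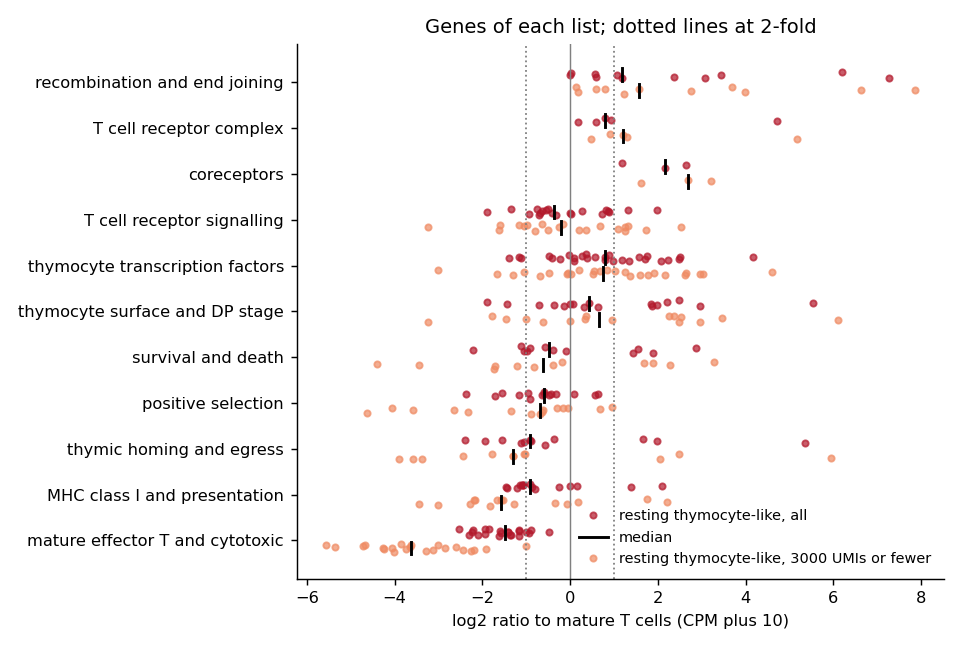
Log2 ratio of CPM plus 10 to mature T cells (horizontal axis) for each tested gene of 11 lists (rows), for all 682 resting thymocyte-like cells (upper points) and the 576 at 3000 UMIs or fewer (lower points); black bars are medians and dotted lines mark 2-fold. Coreceptor genes lie to the right of the right line, and effector genes move left in the 576 cells, to a median of -3.63 against -1.50 in all 682; Rag1, Dntt, Ptcra and Ccr9 are on the plot and were used to choose the cells.

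Many genes of earlier and other lineages were low, with exceptions on the B lineage list. In the 576 cells, Kit, Cd34, Flt3 and Hoxa9, genes of early progenitors, had 0 UMIs among 916206. The B lineage genes Vpreb2, Igll1, Pax5 and Ms4a1 had 0 UMIs in all 682 cells, and the type 17 gene Il17a likewise. The rule left out cells with Cd79b, which can set such B lineage zeros in part. The 15 measured genes of the B lineage list summed to 359 CPM in all resting cells and 493 CPM in the 576. The sum was 192 CPM in mature T cells and 5844 CPM in B cells. Both tested members, Ighm and Lef1, were 2-fold or more higher than in mature T cells in the 576, against 16.2%. Foxp3, the regulatory T cell factor, had 13.8 CPM in all resting cells and 0 UMIs in the 576, against 14.1 CPM in mature T cells. The effector list had 0 of 22 tested genes 2-fold or more higher and 19 lower than in mature T cells, against backgrounds of 9.64% and 3.95%. In the 576 cells 22 of 22 were lower, against 10.7%. Ccl5, a chemokine of effector T cells, was seen at 1000 UMIs per cell in 16.5% of the 576 cells (13.6 to 19.9). The share was 15.4% in B cells, 17.3% in neutrophils, 17.2% in macrophages and 47.6% in mature T cells. The source of these UMIs was not tested.

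Of 15 tested class I genes, 2 were 2-fold or more higher than in mature T cells and 7 lower, against backgrounds of 9.64% and 3.95%, with a median log2 ratio of -0.91. In all 682 cells 0 of the 15 were lower than in naive-like T cells or than in dividing cells, against 2.8% and 8.08%. In the 576 these counts were 8 and 3, against 8.5% and 12.5%. Lower than in mature T cells were 10 in the 576, against 10.7%. B2m, the light chain of class I, had 3671 CPM (3579.5 to 3764) in all resting cells, 1230.1 CPM in the 576, 2746 CPM in dividing cells and 10053 CPM (10006 to 10101) in mature T cells. Thinned, 69.0% of resting cells (65.4 to 72.5) and 62.8% of dividing cells held a B2m UMI, against 99.2% of mature T cells, 98.6% of B cells and 99.9% of neutrophils. RT1-CE1 and RT1-N3, 2 of the many near-identical rat class I genes whose reads may be split among copies, were the higher ones, with log2 ratios of 1.38 and 2.10.

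The named genes were ranked by their ratio to mature T cells after the genes of the rule were set aside. Among the genes set aside, Rag1 and Dntt had log2 ratios of 7.26 and 6.19. Slc7a11, the cystine importer, had 1301 CPM (1247 to 1357) in the resting cells, 368 CPM in the dividing ones and 7.84 CPM (6.58 to 9.27) in mature T cells, a log2 ratio of 6.20. At 1000 UMIs it was seen in 76.4% of resting cells (73.0 to 79.6), 35.1% of dividing cells, 0.948% of mature T cells, 0.288% of B cells and 4.39% of neutrophils. After Thy1 (5.54) came Ssx2ip, a centrosome and adhesion protein (5.46), Syt6, a synaptotagmin (4.98), Pdzrn4 (4.50), Daam1, a formin of the Wnt pathway (4.43), Akap2, a kinase anchor (4.38), Myb (4.17), Ralgps2, an activator of Ral (4.07), Snn (3.79), Tfdp2, a partner of E2F factors (3.70) and Glcci1, named for its induction by glucocorticoids (3.57), each as a log2 ratio. These genes were higher still in the 576 cells, where Slc7a11 had 1977 CPM and Glcci1 1953 CPM, against 1348 CPM of Glcci1 in all 682. The largest negative ratios belonged to Ccl5 (-2.54), the granzyme Gzmbl3 (-2.50), the B cell helper ligand Cd40lg (-2.40), S1pr1 (-2.39), Ms4a4c (-2.38), Gimap4 (-2.37), Gzmbl2 (-2.37), Ctsw (-2.31), Ccl4 (-2.30), Gzmk (-2.23), Faslg (-2.22) and the galectin Lgals1 (-2.21).

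Against the 855 naive-like T cells, the mature T cells with Lef1 and S1pr1, thymocyte genes were again higher, and the count of lower effector genes turned on the deep cells. All 3 coreceptors were 2-fold or more higher, Thy1 had 691 CPM in the resting cells and 1.84 CPM in naive-like cells, and S1pr1 had 31.3 and 508 CPM, the last set in part by the choice of naive-like cells. Of 5998 genes tested, 639 were 2-fold or more higher (10.7%) and 168 lower (2.8%), and for the 576 cells 1018 of 6121 were higher (16.6%) and 520 lower (8.5%). The effector list had 2 of 19 tested genes lower in all 682 cells and 18 of 19 in the 576. Over 7591 genes, the profile of all 682 cells correlated with naive-like cells at a Pearson r of 0.897, with mature T cells at 0.893, with dividing thymocyte-like cells at 0.874 and with B cells at 0.812. For the 576 cells the order was dividing thymocyte-like cells at 0.834, naive-like cells at 0.820, mature T cells at 0.792 and B cells at 0.724. These values are across genes of 1 library and describe it.

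Dividing thymocyte-like cells differed from the resting ones in the division genes, as the rule set. Of 6309 genes tested, 377 were 2-fold or more higher in the resting cells, 5.98%, and 510 lower, 8.08%; in the 576 cells 712 were higher (11.2%) and 794 lower (12.5%). All 19 tested genes of DNA synthesis and 22 of 23 tested genes of mitosis were lower. Cenpf, a kinetochore protein, had 7.22 CPM in the resting cells and 683 CPM in the dividing ones, and Rrm2, a subunit of ribonucleotide reductase, had 4.81 and 328 CPM. The other named genes on this side were Nusap1, Cenpe, Tpx2, Hist1h1a, Sgo2 and Pttg1, all of mitosis or chromatin, and the log2 ratios without Nusap1, which had 0 UMIs in the resting cells, lay between -5.33 for Cenpf and -4.30 for Pttg1.

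On the higher side, the named genes fell into those that stayed without the deep cells and those that did not. Nebl, an actin-binding protein, had 162 CPM in all resting cells, 249.9 CPM in the 576 and 8.55 CPM in dividing cells. Abcg1, a cholesterol exporter, had 175 CPM, 246 CPM and 20.3 CPM in the same populations, and Syt6 had 322 CPM, 479 CPM and 44.9 CPM. By contrast Fcnb, Spp1, Ccl24 and Vcan, genes of monocytes and macrophages, had log2 ratios of 3.29, 3.04, 2.70 and 2.63 in all 682 cells and 0.47, 0.72, 0.00 and 0.38 in the 576. Apoe was between, at 3.16 in all cells and 1.54 in the 576. In summed level, class II genes were lower than in dividing cells in 5 of 6 tested, against a background of 8.08%. Among them was Cd74, the invariant chain, with 895 CPM in all resting cells, 209.6 CPM in the 576 and 2309 CPM in dividing cells. The share of cells did not differ in this way. At 1000 UMIs per cell, Cd74 was seen in 17.5% of resting cells (14.7 to 20.6) and 14.9% of dividing cells (8.39 to 23.7).

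Few genes passed a limit on spread between the resting cells, in a measure that can miss differences in genes with low counts. It left out the 106 cells over 3000 UMIs and does not describe them. In the 556 resting cells between 1000 and 3000 UMIs, thinned to 1000, 39 of 1852 genes with a mean of at least 0.1 UMIs had a variance of 1.5 times the mean or more (2.11%), and the median ratio was 1.04. The same measure gave 177 of 1684 genes (10.5%, median 1.08) in 324 mature T cells and 39 of 1652 genes (2.36%, median 1.04) in 926 B cells. The named genes with the highest ratios in the resting cells were Rgcc, a regulator of the cell cycle (2.64), the immediate early genes Junb (2.62), Jun (2.60) and Fosb (2.52), and the linker histone Hist1h1e (2.56). Ccl5 followed at 2.11, where mature T cells had 25.90.

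Genes of the thymic epithelium were looked for beside these cells. Foxn1, its master factor, Psmb11, the thymoproteasome subunit of the cortex, Krt5 and Krt14 had 0 UMIs in library 2 and in library 1. Ccl25, the ligand of Ccr9, had 0 UMIs in library 2 and 2 in library 1, and Prss16, the thymus serine protease, had 0 and 3. Other genes of the list, which further cell types also use, were present: Epcam had 24 UMIs in library 2 and 68 in library 1, Krt8 46 and 27, Il7 79 and 43, Ccl19 36 and 55, Ccl21 8 and 1448, and Cxcl12 1022 and 2604. In the resting thymocyte-like cells Cxcl12 had 3 UMIs and the other 5 had 0. Dll4, a Notch ligand of the list, was present in both libraries and had 3 UMIs in the resting cells. Epithelial cells lack CD45 and were not the target of the sort, so the counts above do not show whether such cells were in the tissue. The source of the Epcam and Krt8 UMIs was not tested.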

How the data were processed

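The authors deposited unnormalized UMI counts for each gene in each barcode, written by Cell Ranger 4.0.0 (per the file headers); libraries used the 10x 3′ kit, version 2 per the labels' protocols. Build, annotation and cell calling: not given in the sources used here. Rows of 1 symbol were summed, which left 26976 symbols of 32623 genes. Of 29949 barcodes, 29688 had 200 genes or more and no more than 20% of UMIs from mitochondrial genes, with a median of 3732 UMIs in library 1 and 4395 in library 2. A deposited table of library names lists 33756 barcodes, 111 of them shared with the matrix; it describes other cells and was not used. Counts were summed per population and turned into CPM. Log2 ratios are of CPM plus 10, which understates changes of low genes, and genes needed 20 CPM in the higher population. A gene's own CPM carries an exact Poisson interval and a share an exact binomial one (95%). With 1 library per group and cells chosen from the same counts, no test was made and no p-value is given. The sums were tested on simulated counts.

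The cells and gene lists were chosen with earlier results of these data known. Named genes were the 12 highest and 12 lowest ratios to mature T cells and the 8 highest and 8 lowest to dividing thymocyte-like cells, with at least 50 UMIs and 50 CPM, without rule genes, ribosomal, mitochondrial and receptor segment genes or unnamed loci, plus list members; genes named for their spread between cells were chosen after their values were seen. Scrublet (scanpy 1.11.5, expected 8%) called 6.82% of library 2 doublets and 4.07% of library 1; they were kept, and left out as an alternative. Alternatives changed the gene, mitochondrial, Rag1 and division limits, the pseudocount, the CPM minimum, the scaling (TMM, edgeR 4.0.16), the T cells compared and the thinning depth. Python 3.11.15, numpy 2.4.6, scipy 1.17.1 and R 4.3.3 were used.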

Additional observations from a re-analysis of the deposited data

How the results depend on the processing

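The share of cells meeting the rule was 3.5% with a Rag1 minimum of 2 UMIs and 3.7% without cells above 3000 UMIs, against 4.39%. Genes 2-fold or more higher than in mature T cells numbered 586, and 882 with a pseudocount of 1 CPM, 359 under TMM scaling and 1015 without cells above 3000 UMIs. Lower genes numbered 240, and 384 without called doublets, 496 under TMM scaling, 667 without cells above 3000 UMIs and 576 with both populations held to 1000 to 3000 UMIs. Against dividing cells, the 377 higher genes became 651 with a pseudocount of 1 CPM and 712 without cells above 3000 UMIs, and the 510 lower genes became 794 without those cells. The 29.0% of cells with Cd4 and Cd8a or Cd8b was 13.9% at 500 UMIs per cell, 37.9% at 1500 and 45.3% unthinned. TMM scaling shifted the median ratio to dividing cells to -0.02, against 0.11. With naive-like T cells in place of mature T cells, Ccl5 (0.29), Ccl4 (0.33), Gzmk (0.14), Faslg (0.15) and Id2 (0.01) turned positive. At 1000 to 3000 UMIs in both populations, Xrcc4 (0.99), Hmgb1 (0.43), Hes1 (0.80) and Aff3 (0.93) fell short of a log2 ratio of 1. The limit of 3000 UMIs and the matched depth were chosen after seeing the data. The cause of these shifts was not tested. The other alternatives moved no count by more than 1.5 times. No paired analysis was possible because each group has 1 sample and no suffix is tied to a group.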

Other observations

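Stress, interferon and metabolic genes of the resting thymocyte-like cells were set against the shares over all genes, 9.64% higher and 3.95% lower than in mature T cells, or 16.2% and 10.7% in the 576 cells at 3000 UMIs or fewer. Of 14 tested interferon response genes, 0 were 2-fold or more higher than in mature T cells and 4 were lower (9 in the 576), with Mx1, an antiviral GTPase, at 48.7 CPM in all 682 cells, 9.82 CPM in the 576 and 195 CPM in mature T cells. Of 16 immediate early and stress genes, Fosb, Ier2 and Klf6 were lower (7 genes in the 576), and 1 was 2-fold or more higher, a call lost under TMM scaling: Btg2, an antiproliferative gene, with 2995 CPM in the resting cells, 1461 CPM in dividing cells and 1305 CPM in mature T cells. Of 15 genes of glucose use, 1 was lower (4 of 14 in the 576), Ldhb, with 69.2 CPM in the resting cells and 203 CPM in mature T cells, and of 13 respiratory chain genes 0 passed in either direction.

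Some genes better known from other cell types were measured in these cells. Ly75, the endocytic receptor DEC-205, had 108 CPM in the resting cells, 44.9 CPM in dividing cells and 15.0 CPM in mature T cells, with no Epcam or Krt8 UMI in the resting cells. Tcf4, an E protein abundant in plasmacytoid dendritic cells, had 71.0 CPM in the resting cells and 11.1 CPM in mature T cells, with Siglech at 0 UMIs. Ighm, the immunoglobulin mu chain, had 37.9 CPM in all resting cells, 53.5 CPM in the 576, 16.8 CPM in mature T cells and 2746 CPM in B cells; it passed 2-fold over mature T cells in the 576 cells and not in all 682.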
